A study of Rattus norvegicus with 10 samples.

Results

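The genes of the respiratory chain and the ATP synthase were examined in the livers of rats fed an iron-deficient or a control diet. Genes were taken by their symbol in the platform annotation, where it begins with Nduf, Uqcr, Cox followed by a number from 4 to 8, or Atp5, or is Cyc1, Sdha, Sdhb, Sdhc or Sdhd. A probe set had to be paired with exactly 1 gene, and the probe set with the highest mean over the 10 arrays stood for the gene. This gave 87 genes of 14217 with such a probe set. Of them 78 encode subunits, and 9 share the symbol pattern but are no subunits: 6 complex I assembly factors, the ATP synthase inhibitor Atp5if1, the supercomplex factor Cox7a2l and the pseudogene Cox6c-ps1. The rule uses no measured change.

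Each array held liver RNA of 1 male Sprague-Dawley rat aged 5 weeks. The iron-deficient group (5 rats) received a diet with 3 ppm iron for 3 days, and the pair-fed group (5 rats) received a control diet with 48 ppm iron, in amounts matched to what the iron-deficient rats ate. All livers were taken 1.5 h after feeding. One label field of the control arrays names the iron-deficient diet, whereas their titles and treatment field name the control diet, which set their group here. In whole liver RNA, fewer cells of a type and less RNA per cell cannot be told apart. Hepatocyte markers identified the tissue: the mean over 6 of them, including albumin, lay between 13.9 and 14.1 on the log2 scale in all 10 arrays.

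The respiratory chain passes electrons from NADH (complex I) and succinate (complex II) through ubiquinone, complex III and cytochrome c to oxygen at complex IV, and the proton gradient built up on the way drives the ATP synthase (complex V). Iron-sulfur clusters and hemes carry the electrons in complexes I to IV, so that these complexes are among the main users of iron in a cell. In the liver the chain supplies the ATP for gluconeogenesis and urea synthesis. Most subunits are encoded in the nucleus, and dedicated assembly factors build the complexes. In complex IV the hemes sit in a subunit encoded by mitochondrial DNA.

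Many promoters of this gene group carry sites for the nuclear respiratory factor NRF1 or for GABPA (NRF2). The RefSeq promoter table (build GRCr8) holds 250 bases before and 50 after a start for 78 of the 87 genes. The NRF1 core GCGCANGCG, searched on both strands, was present in 19 of these 78 promoters (24.4%), against 6.26% of all 27457 promoters and 11.2% of the 11701 promoters of genes on the array. It was found in 6 of 14 promoters of ATP synthase genes, 8 of 32 of complex I, 1 of 4 of complex II, 1 of 6 of complex III, 0 of 14 of complex IV and 0 of 9 of the iron-containing subunits. The GABPA core CCGGAAGTG was present in 3 of the 78 promoters (3.85%; Cox5b, Uqcrh and Uqcrq), against 1.98% of all promoters and 3.52% of those on the array. The matches of both motifs did not overlap. A match describes letters and is not evidence of binding, and an absent match says nothing about the factor.

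The following stretches lie before the start site and are written in the direction of the gene, with the matched letters in capitals. They are shown for Ndufaf4, the only gene of the group without overlap between the diets, and for 1 gene each of complexes II, V, I and III. In Ndufaf4, Atp5po and Ndufa11 overlapping matches are merged into 1 run, and in Uqcrh the GABPA core is on the opposite strand. Ndufaf1, the only gene called in the comparison, had no match in its promoter, and its last 120 bases before the start are given without capitals.
Ndufaf4, chr5:43401607-43401676 (plus strand): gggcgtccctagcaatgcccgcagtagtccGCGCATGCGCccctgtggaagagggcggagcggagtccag
Sdha, chr1:30764434-30764502 (plus strand): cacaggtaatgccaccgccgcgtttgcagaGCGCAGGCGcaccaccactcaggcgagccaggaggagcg
Atp5po, chr11:44657503-44657572 (minus strand): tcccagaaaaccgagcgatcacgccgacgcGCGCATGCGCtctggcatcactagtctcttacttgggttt
Ndufa11, chr9:1637487-1637562 (plus strand): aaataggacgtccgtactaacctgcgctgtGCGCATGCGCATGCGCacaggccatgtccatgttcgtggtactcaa
Uqcrh, chr5:134790929-134790997 (minus strand): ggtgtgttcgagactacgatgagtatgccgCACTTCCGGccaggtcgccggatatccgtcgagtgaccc
Ndufaf1, chr3:127104021-127104140 (minus strand): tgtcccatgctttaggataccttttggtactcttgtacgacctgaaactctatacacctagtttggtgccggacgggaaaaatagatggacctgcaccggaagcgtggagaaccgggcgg

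Of the 87 genes, only Ndufaf1 was called in the comparison of the diets, and it fell in the iron-deficient group. The call was made by the rank products (RP) method over all 31042 probe sets at a false discovery rate (FDR) under 0.05. No gene of the group was called higher. Over all probe sets, 0.28% were called higher and 0.561% lower, against 0 and 1 of the 87 genes (1.15%), and at this background a single call in 87 is no result about the group. None of the 78 subunits was called in either direction. limma, whose test takes the scatter of the rats into account, gave 0 of the 87 genes, and 0% of all probe sets, at an adjusted p under 0.05. At an unadjusted p under 0.05 it gave 0 of the 87 genes higher and 2 lower (2.3%), against 3.21% and 3.77% of all probe sets.

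Ndufaf1 (CIA30) is a chaperone that helps to assemble the membrane arm of complex I and is not part of the finished complex. Its log2 signals were 6.98, 7.34, 6.91, 7.53 and 7.63 in iron-deficient rats 1 to 5, and 7.88, 7.78, 7.50, 7.62 and 8.07 in pair-fed rats 1 to 5. Iron-deficient rats 1 to 3 lay below every pair-fed rat, whereas iron-deficient rats 4 and 5 lay within the pair-fed range. The mean fell from 7.77 ± 0.22 to 7.28 ± 0.32 (SD, n = 5 each), a log2 fold change of -0.49 (SE 0.148) or a ratio of 0.711, with an RP FDR of 0.025. The limma adjusted p was 0.601. The exact permutation test, 2-sided, gave p = 0.0397 and 0.693 after Benjamini-Hochberg adjustment over all probe sets. The RP call was kept in 5 of the 10 sets that left out 1 array. It was lost without iron-deficient rats 1 or 3 or pair-fed rats 1, 2 or 5, with fold changes between -0.58 and -0.40 on the log2 scale over the 10 sets.

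Ndufaf4, a further complex I assembly factor, was the only gene of the group whose 2 sets of rats did not overlap. Its log2 signals were 10.58, 10.43, 10.45, 10.63 and 10.14 in the iron-deficient group and 10.65, 10.71, 10.67, 10.69 and 10.82 in the pair-fed group. Every iron-deficient rat was below every pair-fed rat, although iron-deficient rat 4 was close to pair-fed rat 1. The log2 fold change was -0.26 (SE 0.088), a ratio of 0.835. RP did not call it (FDR 0.484), and the limma adjusted p was 0.623. The exact permutation test, 2-sided, gave p = 0.00794, the smallest it can give for 5 against 5, and 0.614 after adjustment over all probe sets. Of all probe sets, 0.799% did not overlap with the iron-deficient group lower and 0.493% with it higher; in the group the counts were 1 and 0 of 87 genes. The separation of Ndufaf4 was lost when each array was further centred on its 75th percentile.

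**Figure D1:**
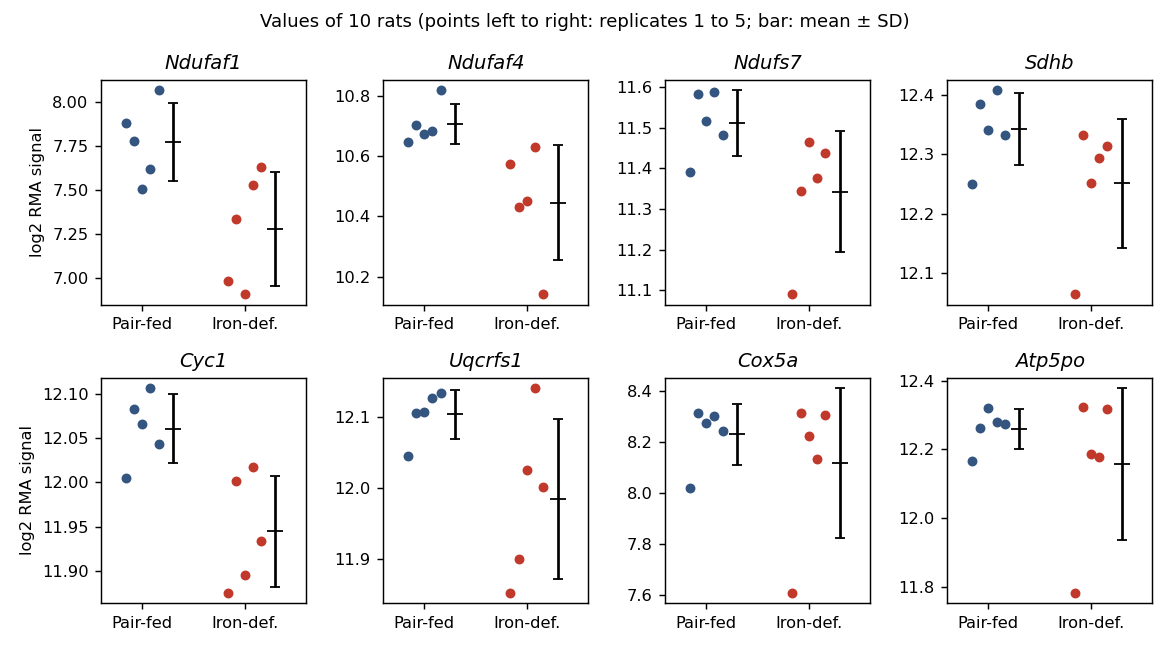
Log2 RMA signal (vertical axis, a separate range for each gene) of 8 genes in the 5 pair-fed rats (blue) and the 5 iron-deficient rats (red), with points from left to right for replicates 1 to 5 and bars for the mean and SD. Ndufaf4 is the only gene without overlap between the diets, and iron-deficient rat 1 is far below the other rats for Cox5a (7.61) and Atp5po (11.78).

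The other assembly factors with an Nduf symbol gave smaller differences. Their log2 fold changes were -0.12 for Ndufaf3, -0.07 for Ndufaf7, -0.05 for Ndufaf5 and 0.02 for Ndufaf8, so that 5 of the 6 complex I assembly factors of the group had a lower mean (median -0.10). A list of other complex I assembly factors was drawn up after the value of Ndufaf1 had been seen. In it 7 of 8 measured genes had a lower mean, with a median log2 fold change of -0.13, and without iron-deficient rat 1 the count was again 7 and the median -0.07. The largest difference was -0.19 (SE 0.073) for Tmem126a, which acts in the assembly of the membrane arm, and the smallest was 0.01 for Tmem186. In this list only Timmdc1 (-0.14, SE 0.057) had every iron-deficient rat below every pair-fed rat. RP called none of these 8 genes.

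The 78 subunits differed little between the diets, and more of them were slightly lower than higher in the iron-deficient group. The mean was lower for 66 subunits (84.6%) and higher for 12, and the median log2 fold change was -0.06, a ratio of 0.96. Single values ran from -0.17 to 0.13, and 59 of the 78 lay within 0.1 of zero. The SE of a single subunit was 0.076 at the median. Over all 14217 genes 52.5% had a lower mean (median -0.0059). Because most subunit transcripts are abundant, they were also set beside the 1990 genes with a mean over 10 on the log2 scale. Of these genes 57.2% had a lower mean, with a median of -0.019, against 59 of the 67 subunits over that level (88.1%, median -0.06). These shares are descriptions without a test, since subunits measured in the same 10 rats are not independent of each other.

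**Figure D2:**
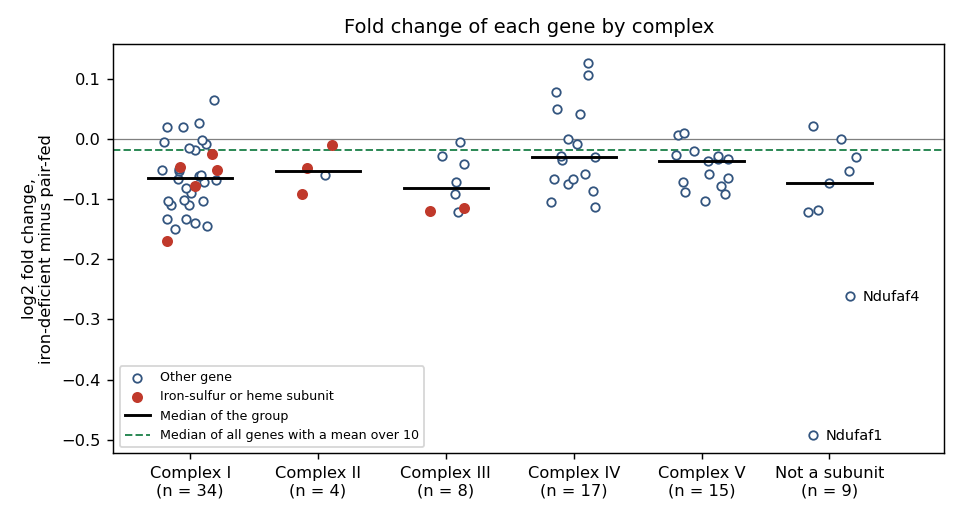
Log2 fold change, iron-deficient minus pair-fed group (vertical axis), of each of the 87 genes by complex, with iron-containing subunits in red, the other genes open, the group median as a black bar and the median of all genes with a mean over 10 (-0.019) as a dashed line. All subunits lie between -0.17 and 0.13, and Ndufaf1 (-0.49) and Ndufaf4 (-0.26) lie below them.

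The lower means of the subunits were not shared by all iron-deficient rats. The mean over the 78 subunits, as the difference from the pair-fed mean on the log2 scale, was -0.21 in iron-deficient rat 1, 0.04 in rat 2, -0.07 in rat 3, -0.04 in rat 4 and 0.03 in rat 5. In the pair-fed rats it was -0.06, 0.04, -0.04, 0.06 and 0.00. The groups overlapped, with a difference of -0.05 between them and an SD of 0.10 in the iron-deficient and 0.05 in the pair-fed group. Of the 78 subunits, 70, 31, 65, 62 and 28 were below the pair-fed mean in iron-deficient rats 1 to 5, and 71, 16, 62, 11 and 33 in pair-fed rats 1 to 5. In both groups the subunits of most rats were therefore largely on the same side. Those of iron-deficient rats 2 and 5 and of pair-fed rat 5 were split more evenly. Pair-fed rat 1 had about as many subunits below the mean as iron-deficient rat 1. Over all 14217 genes the corresponding mean lay between -0.014 and -0.0024 in the iron-deficient rats.

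Iron-deficient rat 1 also stood apart in measures of the array. Its mean correlation with the other arrays was 0.9915, against 0.9935 to 0.9941 for the rest. The excess of the 3' over the 5' control probe sets on the log2 scale, which grows as RNA is degraded, was highest in this rat for both GAPDH (0.36, against -0.05 to 0.11 in the other 9) and beta-actin (1.74, against 1.08 to 1.33). The part of RNA quality in the subunit levels was not tested. Without this array 48 of 78 subunits (61.5%) had a lower mean, with a median log2 fold change of -0.02. At a mean over 10 the share was 65.7% of the subunits (44 of 67) and 55.3% of all genes. Leaving out any other array gave 58 to 70 subunits with a lower mean.

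**Figure D3:**
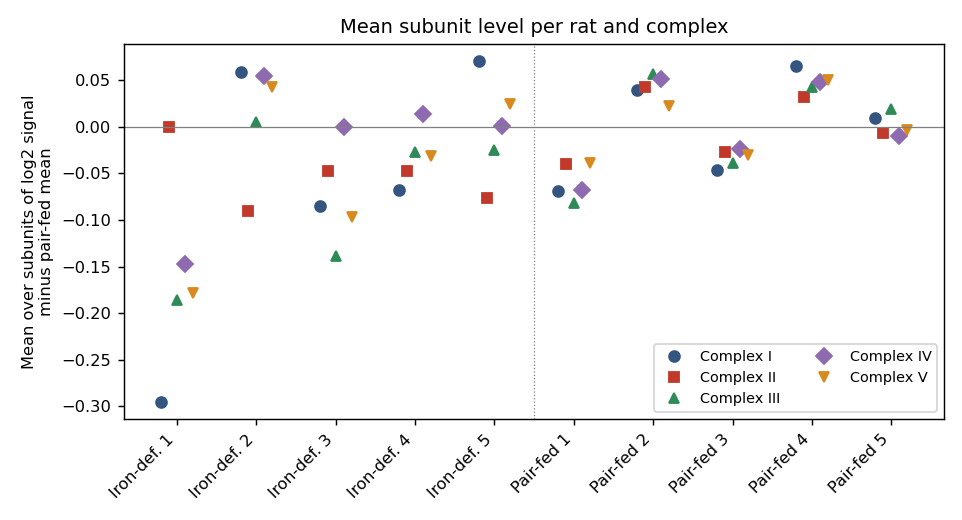
Mean over the subunits of each complex of the log2 signal minus the pair-fed mean (vertical axis) in each of the 10 rats (horizontal axis). Iron-deficient rat 1 is lowest for complexes I, III, IV and V (-0.30, -0.19, -0.15 and -0.18) but at 0.00 for complex II, for which iron-deficient rats 2 to 5 are all below zero (-0.09 to -0.05).

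**Figure D4:**
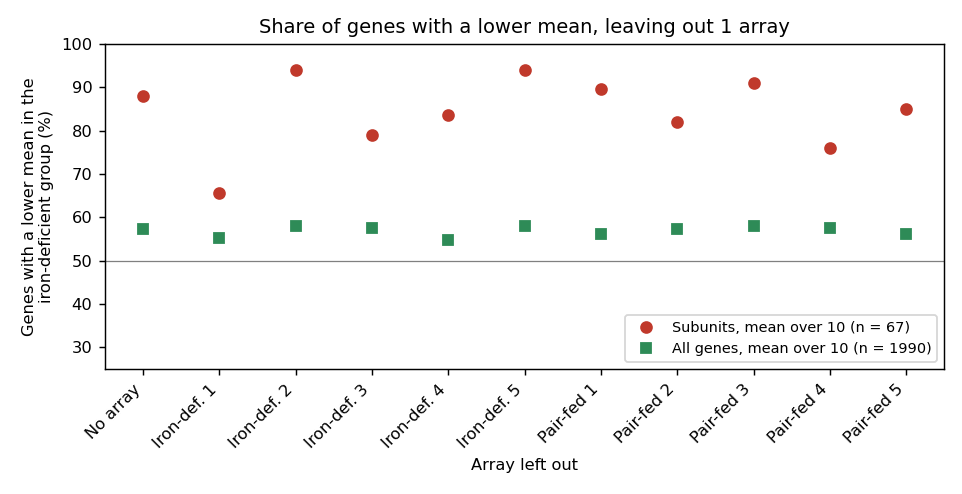
Percentage of genes with a lower mean in the iron-deficient group (vertical axis) when 1 array is left out (horizontal axis), for the 67 subunits with a mean over 10 (circles) and all 1990 genes with a mean over 10 (squares). The share of subunits is 88.1% with all arrays and 65.7% without iron-deficient rat 1, and that of all genes moves between 54.7% and 58.1%.

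Complex I oxidizes NADH, and its matrix arm holds the flavin and all of its iron-sulfur clusters. Of its 34 measured subunits 30 had a lower mean in the iron-deficient group, with a median log2 fold change of -0.06. In the matrix arm this held for 15 of 15 subunits (median -0.07) and in the membrane arm, which pumps protons, for 14 of 18 (median -0.06). The acyl carrier protein Ndufab1, which belongs to both arms, had a value of -0.13 (SE 0.062; limma adjusted p = 0.716). The groups overlapped for each of these subunits. Without iron-deficient rat 1 the count for complex I was 20 of 34, with a median of -0.01, and without rat 2 or rat 5 it was 33 of 34, with medians of -0.10.

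The subunit with the lowest value was Ndufs7, which carries the last iron-sulfur cluster before ubiquinone. Its log2 signals were 11.09, 11.34, 11.46, 11.38 and 11.44 in iron-deficient rats 1 to 5 and 11.39, 11.58, 11.52, 11.59 and 11.48 in the pair-fed rats. Iron-deficient rats 1, 2 and 4 were below all pair-fed rats, and pair-fed rat 1 was below iron-deficient rats 3 and 5. The log2 fold change was -0.17 (SE 0.079; limma adjusted p = 0.714). At the other end of complex I, the small membrane arm subunit Ndufc1 gave 11.52, 11.71, 11.76, 11.51 and 11.85 against 11.56, 11.58, 11.49, 11.66 and 11.74. Its groups overlapped throughout, with a log2 fold change of 0.07 (SE 0.081).

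Complex II, succinate dehydrogenase, also belongs to the TCA cycle. All 4 of its subunits had a lower mean, with log2 fold changes from -0.09 to -0.01 and a median of -0.05. Sdhb, which holds the iron-sulfur clusters, gave 12.06, 12.33, 12.25, 12.29 and 12.31 in the iron-deficient and 12.25, 12.38, 12.34, 12.41 and 12.33 in the pair-fed rats. The lowest value was again that of iron-deficient rat 1, and the others lay within the lower part of the pair-fed range (-0.09, SE 0.067). Sdhc, a membrane anchor that shares a heme with Sdhd, gave 12.29, 12.16, 12.21, 12.20 and 12.13 against 12.17, 12.26, 12.16, 12.22 and 12.24. For Sdhc iron-deficient rat 1 was the highest of the 10 rats, and the group means differed by -0.01 (SE 0.057). Without iron-deficient rat 1 the median of complex II was -0.06 (4 of 4 lower), and without iron-deficient rat 2 it was -0.03 (3 of 4).

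Complex III passes electrons from ubiquinol to cytochrome c. All 8 measured subunits had a lower mean, with a median of -0.08. The count was 7 after centring on the 75th percentile, 6 without iron-deficient rat 1, and 7 without iron-deficient rat 3 or pair-fed rats 2, 4 or 5. The median was -0.07 without iron-deficient rat 1 and -0.06 without pair-fed rat 2. Uqcrh, the hinge protein next to cytochrome c1, gave 11.59, 11.80, 11.64, 11.70 and 11.77 in the iron-deficient and 11.76, 11.91, 11.76, 11.85 and 11.82 in the pair-fed rats. The groups overlapped at 11.76 to 11.80, and the log2 fold change was -0.12 (SE 0.062; limma adjusted p = 0.739). Uqcr10, a small membrane subunit, gave 12.68, 12.72, 12.58, 12.68 and 12.80 against 12.58, 12.73, 12.69, 12.76 and 12.72, and the groups did not separate (-0.01, SE 0.062). A second, dimmer probe set of the core protein Uqcrc2 gave -0.18, against -0.09 for the brighter one.

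Of the redox subunits of complex III, cytochrome c1 and the Rieske protein are encoded in the nucleus and were measured. Cytochrome c1 (Cyc1) gave 11.88, 12.00, 11.90, 12.02 and 11.93 in the iron-deficient and 12.00, 12.08, 12.07, 12.11 and 12.04 in the pair-fed rats. Only pair-fed rat 1 was below any iron-deficient rat. The log2 fold change was -0.12 (SE 0.056), with an exact permutation p, 2-sided, of 0.0159 and 0.631 after adjustment over all probe sets. The Rieske iron-sulfur protein Uqcrfs1 had means of 11.98 ± 0.11 and 12.10 ± 0.03 (SD, n = 5 each) and a log2 fold change of -0.12 (SE 0.065).

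Complex IV, cytochrome c oxidase, has nuclear subunits that occur in widely used forms and in forms restricted to other tissues. Of its 17 measured genes 11 had a lower mean (median -0.03), and without iron-deficient rat 1 the count was 7 and the median 0.01. Medians were -0.06 and -0.02 without iron-deficient rats 2 and 4, and -0.05 and -0.02 without pair-fed rats 1 and 2. The widely used forms accounted for 8 of 10 with a median of -0.06. Of the 7 restricted or stress isoforms 3 were lower, with a median of 0.05, and their mean signals were all between 3.71 and 4.65, near the low end of the scale.

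Signals of different probe sets cannot be compared as levels, and each isoform is given by its difference between the diets. Cox4i1 had means of 13.18 ± 0.11 and 13.26 ± 0.03 in the iron-deficient and pair-fed groups (-0.09, SE 0.065), and Cox4i2, its hypoxia-responsive counterpart in lung, had 4.20 ± 0.19 and 4.09 ± 0.09 (0.11, SE 0.090; all SD, n = 5). Cox6a1 gave -0.07 (SE 0.073), and its heart and muscle counterpart Cox6a2 gave 4.60, 4.86, 4.67, 4.84 and 4.61 in the iron-deficient against 4.39, 4.69, 4.63, 4.71 and 4.52 in the pair-fed rats. Cox6a2 had the largest positive difference of any subunit (0.13, SE 0.082), and the groups overlapped. Cox8a and the muscle form Cox8b differed by 0.04 (SE 0.061) and 0.05 (SE 0.105), and Cox6b1 and the testis form Cox6b2 by -0.03 (SE 0.072) and -0.01 (SE 0.097). Ndufa4 differed by 0.00 (SE 0.056) and Ndufa4l2 by -0.03 (SE 0.084), and the muscle form Cox7a1 by 0.08 (SE 0.084).

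The largest negative difference in complex IV was that of Cox5a, and with the probe set used it rested on 1 array. Its log2 signals were 7.61, 8.32, 8.22, 8.13 and 8.31 in the iron-deficient and 8.02, 8.31, 8.27, 8.30 and 8.24 in the pair-fed rats, with rat 1 lowest in both groups. The log2 fold change was -0.11 (SE 0.124) with all arrays and 0.01 without iron-deficient rat 1. A second, brighter Cox5a probe set (mean 12.39, against 8.17) is shared with another gene and was therefore left out of the group. It gave -0.08 (SE 0.061), and in it iron-deficient rats 1 (12.245) and 3 (12.273) were both below all pair-fed rats. The mitochondrially encoded COX1 and COX2, which hold the hemes and copper of the complex, differed by 0.01 (SE 0.051) and 0.00 (SE 0.052), at signals between 14.91 and 15.01 near the upper end of the scale.

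Complex V, the ATP synthase, contains no iron, and 13 of its 15 measured subunits had a lower mean (median -0.04). The median was -0.02 (11 of 15) without iron-deficient rat 1, -0.07 (14 of 15) without rat 2 and -0.06 (14 of 15) without rat 5. In the catalytic F1 part this held for 4 of 5 subunits (median -0.07), and in the stalk and membrane part for 9 of 10 (median -0.04). Atp5po, the OSCP subunit that joins F1 to the outer stalk, gave 11.78, 12.32, 12.19, 12.18 and 12.32 in the iron-deficient and 12.16, 12.26, 12.32, 12.28 and 12.27 in the pair-fed rats. Iron-deficient rat 1 alone was far below the rest, and the log2 fold change was -0.10 (SE 0.096) with it and -0.01 without it. A dim second probe set of Atp5po pointed the other way (0.16), with every iron-deficient rat above every pair-fed rat at a mean signal of 4.91. The catalytic beta subunit Atp5f1b gave 13.59, 13.40, 13.29, 13.38 and 13.41 against 13.38, 13.41, 13.32, 13.46 and 13.43. Here iron-deficient rat 1 was the highest of the 10 rats, and the group means differed by 0.01 (SE 0.066). The inhibitor Atp5if1 gave -0.12 (SE 0.081) by its brightest probe set and -0.05 and 0.18 by its other probe sets.

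The question of iron content was put by comparing the 10 measured subunits that hold an iron-sulfur cluster or a heme with the 68 others. All 10 had a lower mean in the iron-deficient group, with a median log2 fold change of -0.06, and 56 of the 68 others did (82.4%), also with a median of -0.06. In the matrix arm of complex I, the iron-sulfur subunits besides Ndufs7 gave -0.08 (SE 0.103) for Ndufs8, -0.05 (SE 0.065) for Ndufv1, -0.05 (SE 0.072) for Ndufs1 and -0.02 (SE 0.072) for Ndufv2. Sdhd, the other heme anchor of complex II, had means of 12.40 ± 0.08 and 12.45 ± 0.03 (SD, n = 5 each; -0.05, SE 0.058). All 10 groups of values overlapped between the diets, and none was called.

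Per rat, the mean over the 10 iron-containing subunits relative to the pair-fed mean was -0.19, -0.02, -0.07, -0.07 and -0.04 in iron-deficient rats 1 to 5. In the pair-fed rats it was -0.08, 0.05, -0.01, 0.04 and 0.01. All 5 iron-deficient rats were below zero, but pair-fed rat 1 was below 4 of them. The iron-containing minus the other subunits gave 0.03, -0.07, 0.01, -0.04 and -0.08 in the iron-deficient and -0.02, 0.01, 0.03, -0.02 and 0.01 in the pair-fed rats. The group means of this quantity differed by -0.03 with an SD of 0.05 and 0.02, so that the sign varied between rats within each diet. Without iron-deficient rat 1 the medians were -0.05 (8 of 10 lower) for iron-containing and -0.01 (40 of 68) for the other subunits, whose median was -0.04 (51 of 68) without iron-deficient rat 3. Without iron-deficient rat 4 the order was the other way, with -0.05 for the iron-containing and -0.06 for the other subunits.

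Other genes of the pathway were counted in the same way, and RP called none of them. Among electron carriers and ubiquinone synthesis genes 12 of 13 measured had a lower mean (median -0.07, and -0.04 without pair-fed rat 2). Without iron-deficient rat 1 the count was again 12 of 13 and the median -0.06. The largest differences there were 0.22 (SE 0.091) for Suox, the sulfite oxidase that donates electrons to cytochrome c, and -0.18 (SE 0.066) for the ubiquinone methyltransferase Coq3. Among assembly factors of complexes II to V, a list that includes Atp5if1, 26 of 28 were lower (median -0.10). The farthest values were -0.20 (SE 0.064) for Cox10, which makes heme o on the way to heme a, and -0.19 (SE 0.082) for Lyrm7, which acts in the insertion of the Rieske protein. The mean signal of Lyrm7 was 4.38, near the low end of the scale. Without iron-deficient rat 1 this list had 23 of 28 lower and a median of -0.05.

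TCA cycle genes were lower in 9 of 12 cases (median -0.05, and -0.03 without iron-deficient rat 4). Without iron-deficient rat 1 the count was 10 of 12 and the median -0.07. The largest differences were those of Idh2 (-0.14, SE 0.074) and Idh3g (-0.14, SE 0.071), both isocitrate dehydrogenase genes. Of 13 regulators of mitochondrial biogenesis 8 were lower (61.5%, median -0.04), against 52.5% of all genes. The median of the regulators was -0.0089 without iron-deficient rat 5 and -0.016, -0.012 and -0.014 without pair-fed rats 3, 4 and 5. The coactivator Ppargc1a had the largest difference (0.31, SE 0.143; limma adjusted p = 0.715), and Tfam, which packages and transcribes mitochondrial DNA, gave -0.12 (SE 0.083).

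Markers of some other cell types differed between the same livers. All 4 measured erythroid markers were called lower by RP, with a median log2 fold change of -1.02; their mean level lay between 7.97 and 8.75 in the iron-deficient and between 8.50 and 9.72 in the pair-fed rats. Of 4 stellate cell markers 1 was called, Lum (0.78, SE 0.280), and all 4 had a higher mean (median 0.32). All 3 measured Kupffer cell markers had a lower mean (median -0.20) and all 3 endothelial markers a higher one (median 0.08), with no call. Of 3 cholangiocyte markers 2 were lower (median -0.01), without a call. None of the 5 skeletal muscle markers was called, and 4 of them had signals between 3.42 and 4.35, near the low end of the scale. The probe set annotated as Myh1 read 12.6, unlike the other muscle markers, and its annotation could not be checked. The part of these cell types in the values of the respiratory chain genes was not tested.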

How the data were processed

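Hepatic RNA of 10 rats was hybridized to 1 Affymetrix rat genome array each. The deposited log2 values are robust multiarray average (RMA) signals, which the authors computed in R and Bioconductor. RMA includes quantile normalization over the arrays, and its summaries understate differences near both ends of the scale. The median log2 value per array was 6.19 to 6.22, and the number of arrays limits the precision. All columns were used.

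After 57 control probe sets were left out, 31042 were tested. All 87 symbols were matched by Entrez ID to the RefSeq gene table. Of the 87 genes, 9 had more than 1 probe set, and 7 further probe sets that match the symbols were left out because they are paired with several genes.

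Python 3.11.15 (numpy 2.4.6, scipy 1.17.1, pandas 2.3.3) was used for the rank products and matplotlib 3.10.9 for the figures. The 25 differences between arrays of the 2 diets were ranked, and 100 random reorderings of each array's values gave the expected ranks. The method was tested on simulated data. How often it calls unchanged probe sets is not given here, so a single call can be a false one. Fold changes and errors came from limma 3.58.1 in R 4.3.3, with p-values adjusted over all 31042 probe sets (Benjamini-Hochberg). Exact permutation tests of single values ran over all 252 splits. Motifs were searched in RefSeq promoters of GRCr8.

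The genes named with the values of all rats were those called, those whose groups did not overlap and, per complex, those with the largest differences in each direction; Cyc1 was added after its value had been seen. Iron-containing subunits, isoform pairs and the 2 largest differences of each list were named as well. The members and lists were chosen with earlier results of these data known. Alternatives were another probe set rule, a filter on dim probe sets, centring on the 75th percentile, other tests, a replicate block and leaving out each array.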

Additional observations from a re-analysis of the deposited data

Results flagged for a closer look

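In 4 of 50 groups of 5 arrays examined, 1 value lay farther from the other 4 than Dixon's critical value for groups of this size (0.71 of the range). Among independent groups, chance flags about 1 in 20, or 2.5 of 50. The groups here shared the same rats, and genes such as Cox5a and Atp5po had been chosen for a large difference. The count of flags therefore cannot be judged against that number. Iron-deficient rat 1 was the lowest of its group for Atp5po (11.8), for Cox5a (7.61) and for the mean level of complex IV relative to the pair-fed mean (-0.15). Pair-fed rat 1 was the lowest of its group for Cox5a (8.02).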

How the results depend on the processing

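No subunit was called by rank products in any of the alternatives, and none of the 87 genes was called higher. The number of genes called lower was 0 by limma at an adjusted p and 2 at an unadjusted p under 0.05, against 1 by rank products. It was 0 to 1 when 1 array was left out. The number of genes without overlap between the diets and lower with iron deficiency was 0 after centring on the 75th percentile. It was 1 to 6 when 1 array was left out, and groups with fewer arrays separate more easily by chance. The share of all probe sets without overlap in these settings is not given here. With all arrays it was 0.799% with the iron-deficient group lower. The counts of 1 to 6 are therefore no result about the group. In complex IV the number of genes with a lower mean was 7 to 12 when 1 array was left out, and the lowest was without iron-deficient rat 1. With 8 of the 87 genes removed as dim, Ndufaf1 was still called.

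Over all probe sets, the rats' numbers did not pair the arrays. Deviations from the group mean correlated by -0.04 to 0.09 between arrays of the same number, and 1 of 5 correlated best with its own number. For the mean over the 78 subunits, rats 1 and 3 were below the pair-fed mean in both groups, and rats 2 and 5 were above it. Rat 4 was below it in the iron-deficient group (-0.04) and above it in the pair-fed group (0.06). A pairing of the subunit levels by number was not tested. With the replicate block, rank products called 0 genes higher and 1 lower. limma with the replicate block gave 0 lower genes at an adjusted p and 3 at an unadjusted p under 0.05 (Ndufaf1, Ndufaf4 and Ndufs7). The share of all probe sets with the block is not given here, and without it 3.77% were lower at an unadjusted p under 0.05. The 3 genes are therefore no result about the group.

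The mean over the subunits differed by -0.05 between the diets, with an SD between rats of 0.10 and 0.05 and 5 arrays per diet. Signals near the low end (restricted isoforms) and the upper end (COX1 and COX2) give little room for a difference to show.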

Other observations

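Of the 7 probe sets that match the gene symbols but are paired with several genes, 6 had a lower mean in the iron-deficient group: -0.15 for Atp5mc1, -0.09 for Ndufs5, -0.08 for Cox5a, -0.07 for Cox7a2 and -0.05 each for Atp5mc2 and Uqcrb. The probe set shared by Ndufa10 and a near copy gave 0.20 (SE 0.142).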
